A study of Rattus norvegicus with 8 samples.

Results

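MiR-338-3p, miR-338-5p and miR-219-5p (rno-miR-338-3p, rno-miR-338-5p and rno-miR-219-5p on the array) are 3 microRNAs (miRNAs) known from oligodendrocytes, the cells that wrap axons of the brain in myelin. They were taken by name from the 719 rat miRNAs on the array, by a choice made with earlier results of these data known. The cells were of the C6 line, which comes from a rat glial tumour and which the submitters call glioblastoma. Cultures received haloperidol at 2 µg/ml, or risperidone at 4 µg/ml, or clozapine at 25 µg/ml, or stayed untreated as the control. All were harvested after 5 days, with drug added each day. Haloperidol is a first-generation antipsychotic, and risperidone and clozapine belong to the second generation. All 4 groups grew in the same medium with horse and fetal bovine serum. Each group had 2 arrays, described as biological repeats, so 8 arrays in all were read in 1 colour (Cy3) from 100 ng of total RNA each.

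A miRNA is cut as a short duplex from a hairpin transcript. One strand of the duplex (the 5p arm, from the left side of the hairpin, or the 3p arm, from the right) is usually kept in the silencing complex and the other is degraded. MiR-219 and miR-338 accumulate as oligodendrocyte progenitors of rat and mouse mature, and they repress genes that hold those cells in the progenitor state, among them Sox6 and Hes5. The hairpin of miR-338 lies within Aatk, which encodes a kinase abundant in the nervous system.

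The mature sequences are shown because the arms of miR-338 are set against each other in what follows, and each arm has its own targets. They come from RefSeq on the rat build GRCr8, are written 5′ to 3′, and carry the seed (bases 2 to 8) in capitals. The array's miR-219-5p is listed in RefSeq as rno-miR-219a-5p.
miR-338-3p: uCCAGCAUcagugauuuuguuga
miR-338-5p: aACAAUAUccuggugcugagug
miR-219-5p: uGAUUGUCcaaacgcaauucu
MiR-338-3p is at chr10:105796345-105796367 and miR-338-5p at chr10:105796381-105796402, both on the minus strand and both inside the span of Aatk (chr10:105789171-105825634, minus strand). MiR-219-5p is at chr3:33516561-33516581 on the minus strand, in the hairpin Mir219-2, and the same letters also stand in the hairpin Mir219a1 on chromosome 20, so its signal cannot be assigned to 1 of these genes. The seeds of the 3 miRNAs differ from one another, and none of the 693 mature rat names in the RefSeq table shares a seed with any of them except the miRNA itself. The whole hairpin of miR-338 is given with both arms in capitals, the 5p arm first.
Mir338 hairpin: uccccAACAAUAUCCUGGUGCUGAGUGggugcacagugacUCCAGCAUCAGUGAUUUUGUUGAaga

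The strand opposite to miR-338 carries another hairpin, Mir3065, and its products are shown because they are complementary to the arms of miR-338.
miR-3065-5p: uCAACAAAaucacugaugcu
miR-3065-3p: uCAGCACCaggauauuguugggga
Seeds are again in capitals. MiR-3065-5p overlaps miR-338-3p over 20 bases and miR-3065-3p overlaps miR-338-5p over 19 bases, all of them complementary. Both miR-3065 products were called detected on 0 of 8 arrays, and none of the spots of their 4 probes was well above background. The array therefore gave a measurable signal from the miR-338 strand and not from the opposite strand.

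Levels are log2 values of the summed probe signal divided by the array's 75th percentile, so that 0 is that percentile, and sums under a floor of -6.22 were set to it. Levels of different miRNAs come from different probes and are not set against each other. All 3 miRNAs were called detected on all 8 arrays in the deposited files and were among the 243 miRNAs tested. Arrays with the same replicate number lay in the same row of the single slide, and those of a group in the same column, so column and group cannot be told apart. The 75th-percentile signal was lowest on risperidone array 2 (388) and highest on haloperidol array 1 (1480), and risperidone array 2 also had the fewest detected miRNAs (193, against 203 to 254 on the others). Control array 1 stood farthest from the rest, with a mean squared deviation from the other arrays' levels of 0.539, against 0.109 to 0.321 for the other arrays. Values without control array 1 are therefore given as well for the 3 miRNAs, for the arm difference of miR-338 and for the lists. Among the listed miRNAs, miR-126a-3p has no such value. For the 3 miRNAs and the arm difference, the remaining arrays were scaled and fitted anew. For the lists, the level on control array 2 was subtracted from the drug mean without new scaling. The 3 comparisons with control share the same 2 control arrays and are not independent of each other.

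MiR-338-3p was the only one of the 3 miRNAs that was higher on every drug array than on both control arrays. Its level was 0.32 and -0.12 on the haloperidol arrays, 0.53 and -0.20 on the risperidone arrays, 0.14 and 0.19 on the clozapine arrays, and -1.31 and -0.53 on the control arrays. The lowest drug array, risperidone 2, lay 0.34 above the highest control array on the log2 scale. Among all 243 tested miRNAs, 4 (1.65%) had all 6 drug arrays above both control arrays. In single comparisons, both drug arrays were above both control arrays for 11.5% of tested miRNAs in the haloperidol comparison, 7% in that of risperidone and 5.35% in that of clozapine.

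**Figure D1:**
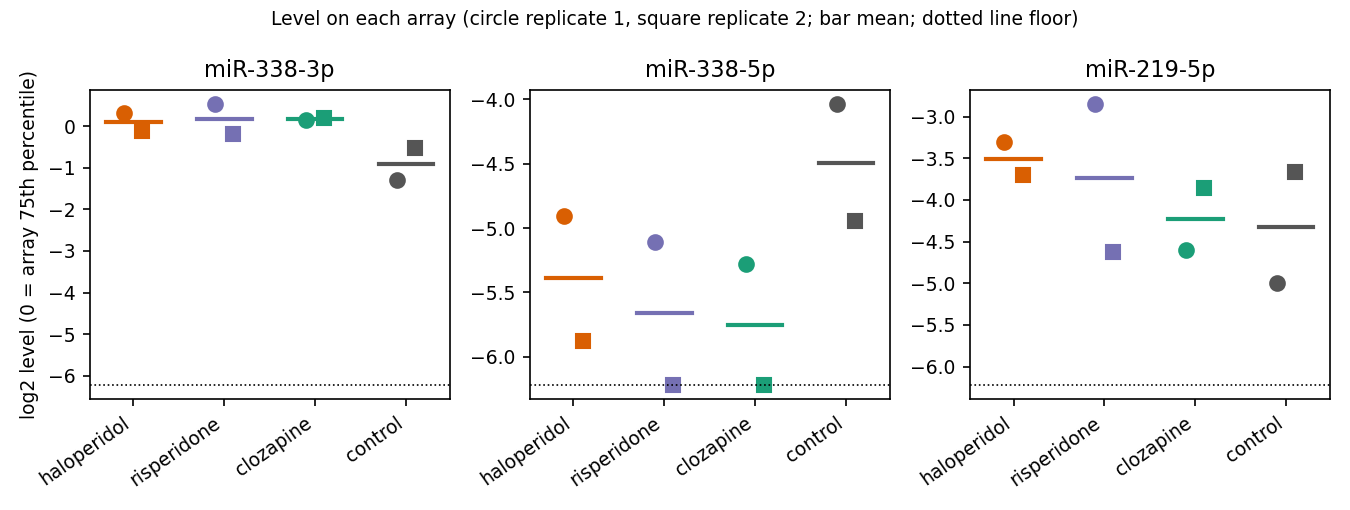
Log2 level of the 3 miRNAs on each of the 8 arrays (0 is the array's 75th percentile), by group; circles are replicate 1, squares replicate 2, bars group means and the dotted line the floor of -6.22. The 6 drug arrays of miR-338-3p lie between -0.20 and 0.53 and both control arrays below them, while miR-338-5p has its highest value on control array 1 with haloperidol array 1 just above control array 2, and miR-219-5p overlaps between each drug group and control.

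By group, the level of miR-338-3p was highest with risperidone (0.17 ± 0.51), followed by clozapine (0.16 ± 0.04), haloperidol (0.10 ± 0.31) and control (-0.92 ± 0.55; SD, n = 2 each). The drug groups overlap one another, and the step between haloperidol and control is the one without overlap. The log2 fold change against control was 1.02 for haloperidol, 1.09 for risperidone and 1.08 for clozapine (SE 0.36 each), or 2.02-, 2.12- and 2.12-fold. None passed the threshold of 0.05: limma's adjusted p over 243 miRNAs was 0.581, 0.454 and 0.326 for the same order of drugs. The unadjusted p-values were 0.0351, 0.0278 and 0.0280, below 0.05 as for 6.58%, 8.64% and 14.8% of all tested miRNAs. With these drugs limma called 0 miRNAs of any kind at an adjusted p under 0.05 (0%), and 16, 21 and 36 had an unadjusted p under 0.05.

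Relative to the other miRNAs, miR-338-3p stood near the top of each list of fold changes. It ranked 11th from the highest of 243 under haloperidol, 8th under risperidone and 2nd under clozapine, and the shares of tested miRNAs with a log2 fold change of 1 or more were 4.53%, 4.53% and 1.65%. The median miRNA was at -0.15, -0.15 and -0.17 in these comparisons, so miR-338-3p lay 1.17, 1.24 and 1.26 above it. The slide rows gave unequal sizes. Within row 1 the difference from control was 1.62 for haloperidol, 1.83 for risperidone and 1.44 for clozapine, and within row 2 it was 0.41, 0.34 and 0.73. Without control array 1 the log2 fold changes were 0.62, 0.70 and 0.69. An exact permutation of 2 against 2 arrays cannot give a p under 0.333, so none was used.

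**Figure D2:**
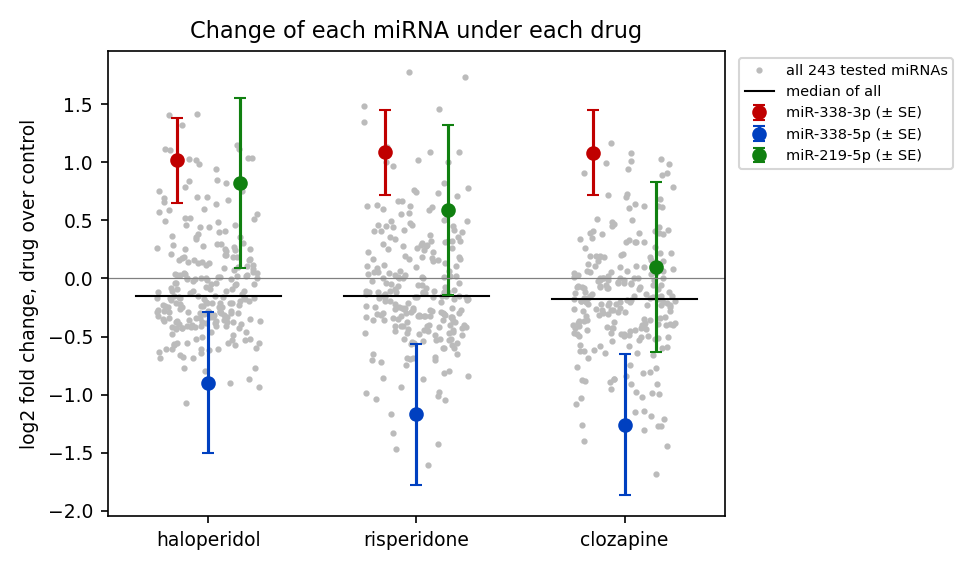
Log2 fold change of each drug over control for all 243 tested miRNAs (grey points, sideways scatter without meaning), with the 3 miRNAs coloured (error bars, standard error) and the median of all miRNAs as a black line. MiR-338-3p lies at 1.02 to 1.09, miR-338-5p at -1.26 to -0.90, and miR-219-5p at 0.82, 0.59 and 0.10 for haloperidol, risperidone and clozapine.

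Both probes for miR-338-3p, with 10 spots each per array, read alike. Probe A_26_P00001065 had a mean background-subtracted signal, not scaled between arrays, of 957 and 455 on the haloperidol arrays, 811 and 173 on the risperidone arrays, 451 and 405 on the clozapine arrays, and 212 and 337 on the control arrays. Probe A_26_P00001066 had 884 and 429, 763 and 165, and 423 and 382 on the arrays of the same drugs, and 209 and 322 on the control arrays. Before scaling, risperidone array 2 was therefore below both control arrays, and it is the array with the lowest 75th percentile. All 80 spots of each probe were well above background, with a coefficient of variation within an array of 2.81% to 6.45% for the first and 4.94% to 10.5% for the second. After scaling, the probes' log2 fold changes against control differed by 0.06 under haloperidol, 0.04 under risperidone and 0.05 under clozapine. The median gap, highest minus lowest probe, over the 175 miRNAs with 2 or more tested probes was 0.04, 0.05 and 0.05. Probes of 1 miRNA share their target and are no replicates.

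**Figure D3:**
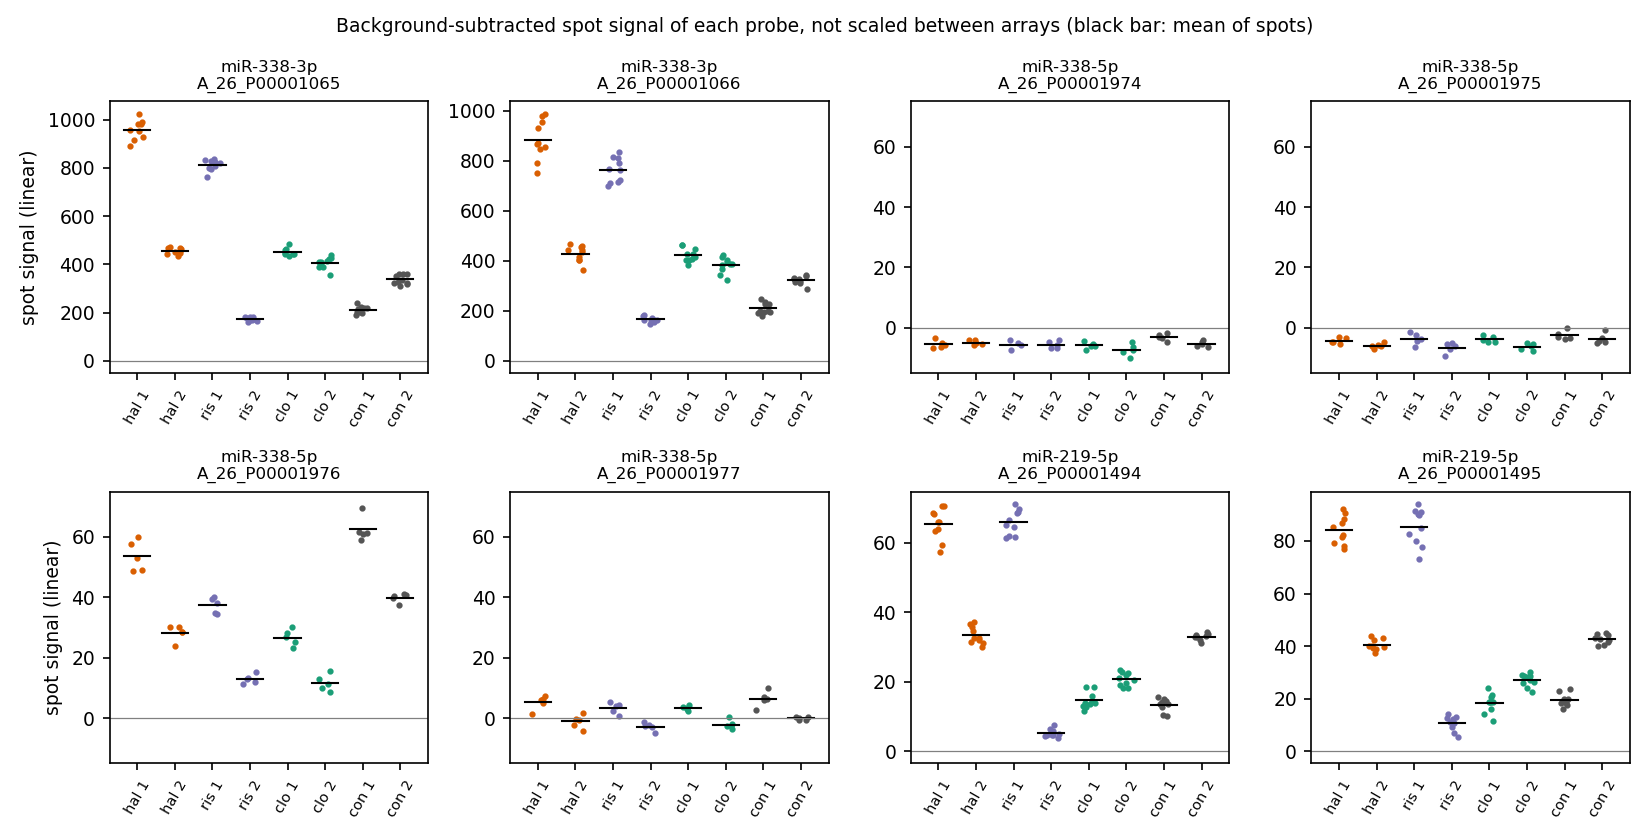
Background-subtracted signal (linear, not scaled between arrays) of every spot of the 8 probes for the 3 miRNAs, by array: hal, haloperidol; ris, risperidone; clo, clozapine; con, control; the black bar is the mean. For miR-338-5p the signal comes from 1 probe (A_26_P00001976, means of 11.7 to 62.6), while its 3 other probes lie near or below 0.

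MiR-338-5p, the opposite arm of the same hairpin, was lower on 5 of the 6 drug arrays than on both control arrays. Its level was -4.91 and -5.88 on the haloperidol arrays, -5.11 and -6.22 on the risperidone arrays, -5.28 and -6.22 on the clozapine arrays, and -4.04 and -4.95 on the control arrays. Risperidone array 2 and clozapine array 2 were at the floor, and haloperidol array 1 was slightly above control array 2, so that haloperidol and control overlap. Risperidone and clozapine lay below control without overlap, as did 32.9% and 33.7% of all tested miRNAs (32.1% for haloperidol), so that such a separation was common in these comparisons.

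By group the level of miR-338-5p was lowest with clozapine (-5.75 ± 0.66), followed by risperidone (-5.66 ± 0.79), haloperidol (-5.39 ± 0.68) and control (-4.49 ± 0.64; SD, n = 2 each). The log2 fold changes against control were -0.90 for haloperidol, -1.17 for risperidone and -1.26 for clozapine (SE 0.61), and none passed (limma, adjusted p of 0.581, 0.510 and 0.458). The floor hides spread, so these standard errors and p-values may be too low, and with a floor at the 1st percentile the values for risperidone and clozapine were -2.01 and -2.10. Within row 1 the differences from control were -0.87, -1.07 and -1.25, and within row 2 they were -0.93, -1.27 and -1.27, the last 2 with the drug array at the floor. Without control array 1 the log2 fold changes were -0.46, -0.73 and -0.81. Leaving out any 1 array, the haloperidol value lay between -1.38 and -0.42, that of risperidone between -1.73 and -0.64 and that of clozapine between -1.74 and -0.77, in each case with the ends set by the 2 arrays of that drug. With the slide row as a block the SE was 0.10, from values of which 2 are the floor. Under that block the adjusted p was 0.135 for haloperidol, 0.0440 for risperidone and 0.0324 for clozapine, so the last 2 passed.

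The probe-level data show what the values of miR-338-5p are made of. It has 4 probes with 5 spots each per array, and 1 of them, A_26_P00001976, carried the signal. Its mean was 53.6 and 28.2 on the haloperidol arrays, 37.5 and 12.9 on the risperidone arrays, 26.7 and 11.7 on the clozapine arrays, and 62.6 and 39.9 on the control arrays. All 5 spots were well above background on 6 arrays, 3 of 5 on risperidone array 2 and 2 of 5 on clozapine array 2, which makes 35 of 40 spots. The other 3 probes had 0 of 40 spots each well above background, with means of -7.29 to -3.07 for A_26_P00001974, -6.56 to -2.4 for A_26_P00001975 and -2.84 to 6.42 for A_26_P00001977.

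These dim probes set the summed value on the faintest arrays. On risperidone array 2 the carrying probe read 12.9 and the others -5.60, -6.56 and -2.84, which gives a sum of -2.05 and hence the floor. On clozapine array 2 the carrying probe read 11.7 and the sum was -3.90. The deposited gene-level signal, which was not at the floor, was 18.2 and 9.67 on the haloperidol arrays, 12.6 and 4.44 on the risperidone arrays, 9.04 and 3.94 on the clozapine arrays, and 21.6 and 13.7 on the control arrays. In that unscaled signal haloperidol overlaps control, while risperidone and clozapine lie below it. Without scaling of the summed signal, the median log2 fold change of all tested miRNAs was 0.09 for haloperidol, -0.64 for risperidone and -0.55 for clozapine. The share of all miRNAs that lay below control in the unscaled signal was not counted.

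With the carrying probe alone, all 6 drug arrays were below both control arrays. Its log2 level was -4.79 and -5.09 with haloperidol, -4.86 and -4.91 with risperidone, -4.90 and -5.88 with clozapine, and -4.06 and -4.58 in control. By the summed levels, 19.8% of all tested miRNAs had all 6 drug arrays below both control arrays. Within row 1 the differences from control were -0.73, -0.81 and -0.84 for haloperidol, risperidone and clozapine, and within row 2 they were -0.51, -0.32 and -1.29, so the rows were less alike than in the summed levels with their floor. The log2 fold changes of this probe were -0.62, -0.57 and -1.07 for haloperidol, risperidone and clozapine (SE 0.36), with limma's adjusted p over 420 probes at 0.497, 0.514 and 0.362. The shares of probes with an adjusted p under 0.05 were 0% in each comparison, and with an unadjusted p under 0.05 they were 6.9%, 10% and 13.3%. With the slide row as a block and the brightest probe in place of the sum, the adjusted p for miR-338-5p was 0.226, 0.211 and 0.126, so the calls for risperidone and clozapine under the block were lost. With the block and the deposited signal they were lost as well (0.330, 0.212 and 0.188). Both combinations were added after the data had been seen.

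Set against each other, the 2 arms of miR-338 differed more on each of the 6 drug arrays than on either control array. The quantity used is the log2 level of the 3p arm minus that of the 5p arm on the same array, whose size depends on the probes, so that only its differences between arrays are read. It was 5.22 and 5.76 with haloperidol, 5.64 and 6.02 with risperidone, 5.42 and 6.41 with clozapine, and 2.73 and 4.41 in control. All 6 drug arrays were above both control arrays, as for 4 of the 50 hairpins with both arms tested (8%). Both arrays of a single drug were above both control arrays for 18% of the hairpins under haloperidol, 26% under risperidone and 20% under clozapine. Division of an array by 1 factor cancels in this difference, except through the floor.

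**Figure D4:**
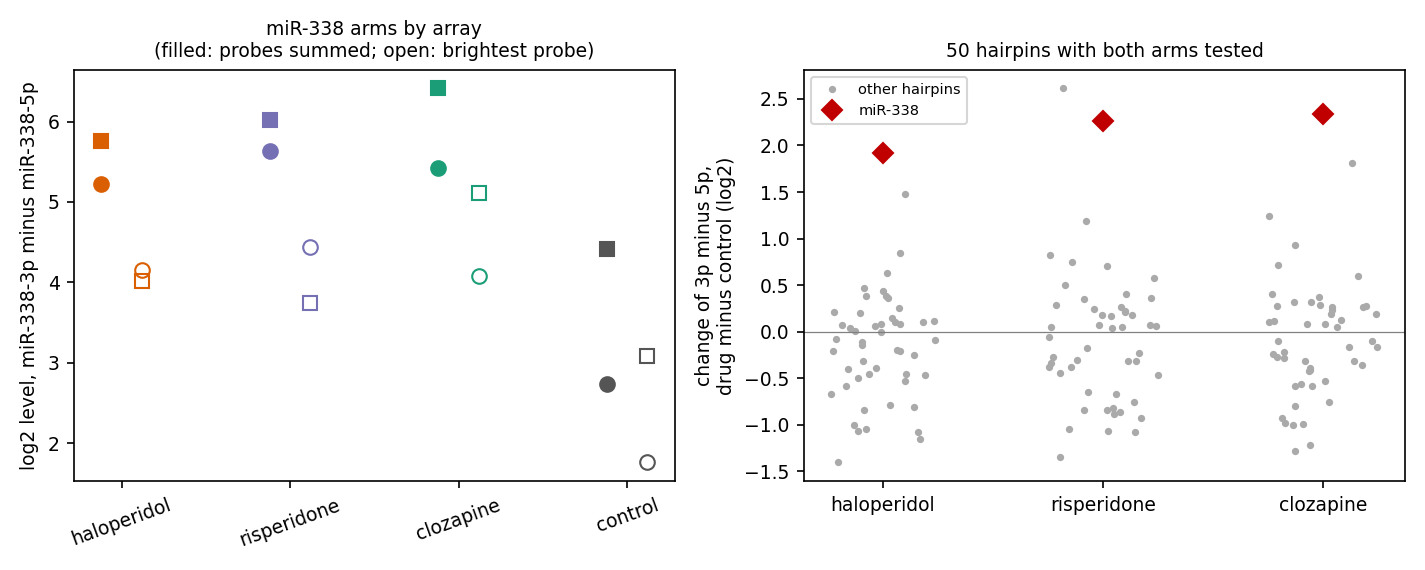
Left, log2 level of miR-338-3p minus miR-338-5p on each array (filled, probes summed; open, brightest probe of each arm; circles replicate 1, squares replicate 2). Right, drug minus control of the 3p-minus-5p difference for the 50 hairpins with both arms tested, with miR-338 in red at 1.92, 2.26 and 2.34 for haloperidol, risperidone and clozapine.

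The arm difference averaged 5.49 ± 0.38 with haloperidol, 5.83 ± 0.27 with risperidone, 5.91 ± 0.70 with clozapine and 3.57 ± 1.19 in control (SD, n = 2 each). Drug minus control it was 1.92 for haloperidol (95% interval 0.47 to 3.37), 2.26 for risperidone (0.81 to 3.71) and 2.34 for clozapine (0.89 to 3.79), with an SE of 0.61. These have unadjusted p-values of 0.0170, 0.00820 and 0.00689 in limma, the smallest of the 50 hairpins for each drug, and adjusted p-values of 0.567, 0.407 and 0.344, so none passed. Among the 50 hairpins 0% had an adjusted p under 0.05 for any drug, and 2, 4 and 4 (4%, 8% and 8%) had an unadjusted p under 0.05. The value of miR-338 was the largest of the 50 with haloperidol and clozapine, and with risperidone the one for miR-193 was larger (2.61, unadjusted p = 0.0450). The median hairpin was at -0.10, -0.01 and -0.10.

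A positive log2 fold change of the 3p arm with a negative one of the 5p arm was uncommon. It was found in 3 of 50 hairpins (6%) with haloperidol and in 5 of 50 (10%) with risperidone and again with clozapine, miR-338 being 1 of them each time. Arms of opposite sign in either direction were found in 17, 22 and 16 hairpins.

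The size of the arm difference depended on the slide row and on control array 1. Within row 1 it was 2.49 for haloperidol, 2.91 for risperidone and 2.69 for clozapine, and within row 2 it was 1.34, 1.61 and 2.00. Without control array 1 it was 1.08, 1.43 and 1.50. Without control array 2 it was 2.76, 3.11 and 3.19, and the last 2 then passed (adjusted p of 0.0284 and 0.0354), with control array 1 as the single control. With the row as a block the adjusted p was 0.0966, 0.0426 and 0.0352, so risperidone and clozapine passed.

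The floor and the dim probes enter this result too. With the brightest probe of each arm, the arm difference was 4.16 and 4.01 with haloperidol, 4.44 and 3.74 with risperidone, 4.08 and 5.11 with clozapine, and 1.76 and 3.08 in control. All 6 drug arrays were above both control arrays here too. The share of hairpins with that pattern was counted for the summed levels only (8%), not for the brightest probes. Drug minus control it was 1.67, 1.67 and 2.18, and within row 2 it was 0.93, 0.66 and 2.03. With the row as a block as well, the adjusted p was 0.322, 0.228 and 0.131, and with the block and the deposited signal it was 0.398, 0.195 and 0.156, so no drug passed on either. With normexp, another background correction that lifts dim signals by an offset of 50, the arm difference was 1.13, 0.58 and 0.02.

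MiR-219-5p, which in rodent oligodendrocyte progenitors represses Pdgfra and so acts on the growth signal that keeps them dividing, did not separate drug from control. Its level was -3.31 and -3.70 on the haloperidol arrays, -2.85 and -4.62 on the risperidone arrays, -4.60 and -3.85 on the clozapine arrays, and -4.99 and -3.66 on the control arrays. Every drug group overlaps control. The groups ordered as haloperidol (-3.50 ± 0.28), risperidone (-3.74 ± 1.26), clozapine (-4.23 ± 0.53) and control (-4.33 ± 0.94; SD, n = 2 each), and each step in that order was within the spread of the arrays.

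The log2 fold changes of miR-219-5p against control were 0.82 for haloperidol, 0.59 for risperidone and 0.10 for clozapine (SE 0.73), with limma's adjusted p at 0.631, 0.648 and 0.973. The rows disagreed in sign. Within row 1 the differences from control were 1.69, 2.15 and 0.39, and within row 2 they were -0.04, -0.97 and -0.19. Without control array 1 the values were 0.14 for haloperidol, -0.08 for risperidone and -0.57 for clozapine.

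Both probes of miR-219-5p followed the same course over the arrays. Probe A_26_P00001495 had an unscaled mean of 84.1 and 40.5 with haloperidol, 85.5 and 10.6 with risperidone, 18.2 and 27.0 with clozapine, and 19.4 and 42.6 in control. Probe A_26_P00001494 had 65.5 and 33.4, 66.0 and 5.13, and 14.6 and 20.7 for the same drugs, and 13.2 and 33.0 in control. Row 1 of haloperidol and risperidone was bright while risperidone array 2 was the dimmest, with 3 of 10 spots of the first probe and 0 of 10 of the second well above background there. Over all arrays 71 and 65 of 80 spots were well above background. The 2 probes' log2 fold changes differed by 0.04 for haloperidol, 0.28 for risperidone and 0.0037 for clozapine. The median gap over all miRNAs with 2 or more tested probes was 0.04, 0.05 and 0.05. The second probe was at the probe-level floor of -6.09 on control array 1 and on risperidone array 2. All its fold changes against control therefore include a floored value, and the small gaps do not show how closely the probes agree.

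The 3p products of the miR-219 hairpins gave no such signal. MiR-219-1-3p and miR-219-2-3p were called detected on 0 of 8 arrays, and of their 6 probes 1 spot in all was well above background. An arm comparison like that for miR-338 was therefore not possible for miR-219.

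Drug against drug, no member differed past the threshold, and the doses in µg/ml differ between the drugs. For miR-338-3p, risperidone minus haloperidol was 0.07 (95% interval -0.85 to 0.98), clozapine minus haloperidol 0.07 (-0.85 to 0.98) and clozapine minus risperidone -0.0021 (-0.92 to 0.91). These intervals still allow differences of nearly the size seen against control. For miR-338-5p the same differences were -0.27 (-1.80 to 1.25), -0.36 (-1.88 to 1.17) and -0.09 (-1.61 to 1.44). For miR-219-5p they were -0.23 (-2.07 to 1.60), -0.72 (-2.56 to 1.11) and -0.49 (-2.32 to 1.34). In all 9 the adjusted p from limma was 1, and over all 243 miRNAs limma called 0% in each drug pair, with 0, 3 and 4 (0%, 1.23% and 1.65%) at an unadjusted p under 0.05. The groups did not overlap in 1 of the 9, miR-219-5p with clozapine below haloperidol, as did 16% of all tested miRNAs in that direction. Over the 4 groups together, the F test gave unadjusted p-values of 0.0695 for miR-338-3p, 0.257 for miR-338-5p and 0.651 for miR-219-5p, with adjusted p-values in limma of 0.799, 0.849 and 0.865. Of all tested miRNAs 3.29% had an unadjusted p under 0.05 in that test and 0% an adjusted one.

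Across the 8 arrays none of the 3 relations between the miRNAs had an exact permutation p under 0.05. The permutation shuffles all 8 arrays freely across groups and slide rows. Its p-values therefore do not separate a relation within groups from one between groups or rows. So few arrays do not show that the courses differed. MiR-219-5p and miR-338-3p had a Pearson r of 0.68 (exact permutation p = 0.0592, adjusted over 3 relations 0.178) and a Spearman rho of 0.69 (p = 0.0694, adjusted 0.208). Without control array 1 and risperidone array 1, the arrays farthest from the median of miR-219-5p, r was 0.09, so the relation rests on those arrays. MiR-338-5p and miR-338-3p had an r of -0.51 (exact p = 0.205, adjusted 0.308) and a rho of -0.18 (p = 0.672, adjusted 0.693), and r was -0.02 without control array 1 and risperidone array 2. MiR-338-5p and miR-219-5p had an r of -0.10 (exact p = 0.816, adjusted 0.816) and a rho of 0.17 (p = 0.693, adjusted 0.693), and r was 0.30 without those arrays. For miR-338-5p, clozapine array 2 was at the floor like risperidone array 2 and so equally far from the median. Leaving out risperidone array 2 rather than clozapine array 2 was arbitrary, and r without the latter was not computed. A slide row holds too few arrays for a value of its own.

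Among the 184 other miRNAs detected on all 8 arrays, those most like each member in level were different ones, apart from miR-503-5p, which recurred. For miR-338-3p they were miR-30e-5p (Pearson r over 8 arrays 0.92), miR-30a-5p (0.89), miR-290 (0.87), miR-503-5p (0.87) and miR-362-3p (0.85). For miR-338-5p they were miR-196b-5p (0.98), miR-450a-5p (0.97), miR-100-5p (0.96), miR-128-3p (0.95) and miR-425-5p (0.95). For miR-219-5p they were miR-532-5p (0.95), miR-503-5p (0.94), miR-181c-5p (0.94), miR-542-5p (0.94) and miR-324-5p (0.93). By the same measure miR-338-5p ranked 138th for miR-338-3p and miR-219-5p 34th. All these values share the arrays' scaling, and those of miR-338-5p include 2 at the floor.

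Other miRNAs of the oligodendrocyte lineage, 12 in a list from general knowledge, had fold changes on either side of 0. Of these 8 were tested and 4 (miR-219-1-3p, miR-219-2-3p, miR-138-5p and miR-145-5p) were detected on 0 arrays. Against control 5 of the 8 were above 0 under haloperidol, 4 under risperidone and 3 under clozapine, with medians of 0.03, -0.01 and -0.05 beside -0.15, -0.15 and -0.17 over all tested miRNAs. None passed the threshold. The counts rested in part on control array 1: without it 3, 4 and 6 of the 8 were above 0, with medians of -0.05, -0.0062 and 0.07. MiR-214-3p was at -0.46, -0.84 and -0.88, and miR-212-3p, which restrains the maturation of cultured oligodendrocyte progenitors, at 0.19, 0.62 and 0.35 for haloperidol, risperidone and clozapine. MiR-23a-3p, which favours myelination in mouse by repressing lamin B1, was at -0.21, -0.28 and -0.02, and miR-7a-5p at -0.17, -0.31 and -0.07. When control array 1 was left out, miR-214-3p was at -0.77, -1.15 and -1.19, miR-212-3p at -0.09, 0.35 and 0.07, miR-23a-3p at -0.09, -0.16 and 0.10, and miR-7a-5p at -0.0038, -0.14 and 0.10. MiR-9a-5p was at 0.03, -0.07 and -0.13, and miR-199a-5p at 0.03, 0.05 and -0.36, while without control array 1 they were at 0.23, 0.13 and 0.07 and at -0.71, -0.70 and -1.10. MiR-32-5p, detected on 5 arrays and with its lowest level at the floor, was at 0.26, 0.46 and 0.02 with control array 1 and without it. Its level was the same on both control arrays, so this equality does not show that the values are robust. MiR-204-5p was at 0.37, 0.16 and 0.32, and without control array 1 at 1.38, 1.18 and 1.33.

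Markers of other cells give the setting of these values. The neuronal miR-124-3p and miR-137-3p were detected on 0 arrays, and miR-129-5p on 8, at -0.29, -0.19 and -0.27. MiR-21-5p and miR-125b-5p, both abundant in glioma, were detected on 8 arrays, at 0.14, 0.28 and 0.41 and at -0.30, -0.28 and -0.23. Of the microglial and leukocyte markers miR-142-5p was detected on 0 arrays, miR-142-3p on 3, miR-223-3p on 4 and miR-150-5p on 5, and the 2 tested of these 4 were at -0.28, 0.24 and -0.02 (miR-223-3p) and -0.59, -0.60 and -0.60 (miR-150-5p). Of the red cell and serum markers miR-451-5p was detected on 2 arrays and miR-144-3p on 0. The skeletal muscle miR-1-3p and miR-133a-3p were detected on 0 arrays, and miR-206-3p on 5, at -1.07, -1.47 and -1.21. The endothelial miR-126a-3p was detected on 8 arrays, at 0.01, -0.52 and -0.30. With control array 1 left out, miR-129-5p was at -0.63, -0.53 and -0.61, miR-21-5p at -0.17, -0.03 and 0.10, and miR-125b-5p at -0.13, -0.11 and -0.06. MiR-223-3p was then at -0.16, 0.36 and 0.10, miR-150-5p at -0.25, -0.25 and -0.25, and miR-206-3p at -0.48, -0.87 and -0.61. The lowest level of miR-223-3p, of miR-150-5p and of miR-206-3p was the floor. None of these passed in the fit over all 8 arrays, and their part in the results was not tested. In bulk RNA, fewer cells holding a miRNA and less of it per cell cannot be told apart.

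**Figure D5:**
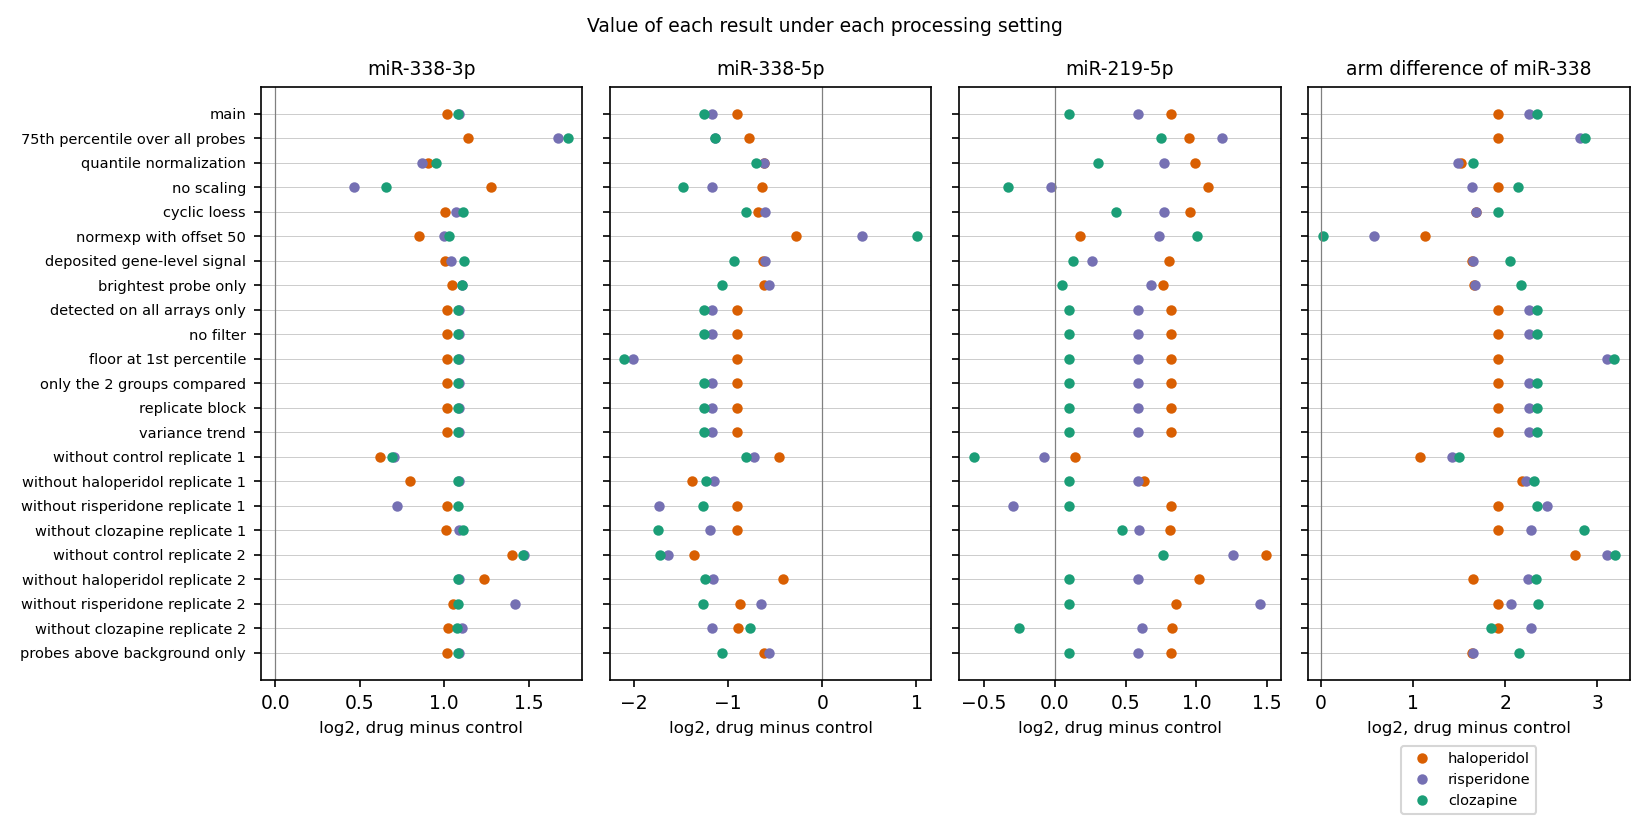
Drug minus control (log2) of the 3 miRNAs and of the arm difference of miR-338 under each processing setting, including the leaving out of each array, by drug. MiR-338-3p stays above 0 in every setting shown, miR-338-5p is above 0 with risperidone and clozapine only under normexp (0.42 and 1.003), and the arm difference with risperidone and clozapine is smallest under normexp (0.58 and 0.02). Under normexp the median of all tested miRNAs is itself 0.38 with risperidone and 0.76 with clozapine, and miR-338-5p lies 0.04 and 0.24 above it.

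MiR-338-3p kept its sign under all the settings tried, and the sizes varied with the scaling. Without scaling between arrays its log2 fold change was 1.28 for haloperidol, 0.47 for risperidone and 0.65 for clozapine, where the median of all miRNAs was 0.09, -0.64 and -0.55. With the 75th percentile over all probes it was 1.14, 1.67 and 1.73, where the median was -0.04, 0.35 and 0.42. Relative to the median of all miRNAs, miR-338-3p was 1.18, 1.11 and 1.20 without scaling and 1.18, 1.32 and 1.31 with that percentile. With normexp it was 0.96, 0.62 and 0.27 above the median.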

How the data were processed

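The deposited spot-level files hold the authors' background-subtracted signal as linear intensity with 0/1 flags (unit other), made with Agilent Feature Extraction 10.7.3.1 per the file headers; gene-level files hold the deposited summed intensity and a detection flag. Neither was scaled between arrays. Spots without outlier flags were averaged per probe and summed per miRNA. Each sum was scaled to the 75th percentile, on its array, of the 291 probes that were above background everywhere. A floor was set at the 5th percentile of the scaled sums of detected miRNAs before log2 was taken. A probe was above background where more than 50% of its spots were well above it. Tested were the 243 miRNAs that both arrays of any group had detected, and 476 were left out. One limma model (version 3.58.1, lmFit and eBayes, in R 4.3.3) held the means of the 4 groups over 8 arrays, two-sided, with Benjamini-Hochberg adjustment at 0.05 and 4 residual degrees of freedom. P-values measure the spread between cultures and their arrays. The arm difference was fitted alike over 50 hairpins and probes over 420. The code was tested on simulated data.

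The members and lists were chosen with earlier results of these data known. Named are the members and their probes, the listed miRNAs and the 5 most correlated with each member; the name miR-126-3p was read as miR-126a-3p after the data had been seen. Alternatives were other scalings, normexp (on spot medians), probe summaries, floors, filters, a variance trend, the 2 groups compared alone, the replicate block and each array left out. Added after seeing the data were the probes above background alone, and the block together with the brightest probe or the deposited signal. Coordinates and sequences are RefSeq's (GRCr8); the build used for the array design is not given in the sources used here. Array number limits the precision.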

Additional observations from a re-analysis of the deposited data

How the results depend on the processing

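The limits are 2 arrays a group, 1 slide, and a signal near background on the dimmest arrays for miR-338-5p and miR-219-5p. The signs of miR-338-3p and of the arm difference against control held under every setting tried, and the sign of miR-338-5p under all but normexp (0.42 with risperidone, 1.003 with clozapine). The median of all tested miRNAs under normexp was itself 0.38 with risperidone and 0.76 with clozapine. Relative to the median, miR-338-5p was then at -0.17 with haloperidol, 0.04 with risperidone and 0.24 with clozapine. In the main processing it was at -0.75, -1.02 and -1.08 relative to the median. The sign of miR-219-5p against control turned without scaling (-0.027 with risperidone, -0.33 with clozapine). Leaving out 1 array at a time, miR-219-5p ranged over 0.14 to 1.49 with haloperidol, -0.30 to 1.45 with risperidone and -0.57 to 0.77 with clozapine, and the arm difference over 1.43 to 3.11 with risperidone and 1.50 to 3.19 with clozapine. The number of miRNAs past the threshold was 0 to 6 with haloperidol, 0 to 10 with risperidone and 0 to 9 with clozapine, and the number of hairpins 0 to 3 with risperidone and 0 to 2 with clozapine, with the highest counts in each case without control array 2. The lone control array is then assumed to vary like the other groups, and the cause was not tested.

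The replicate block gave miR-338-5p at -1.17 with risperidone and -1.26 with clozapine as calls, and the arm difference at 2.26 and 2.34. It gave 0, 1 and 2 miRNAs past the threshold with haloperidol, risperidone and clozapine, and 1 hairpin with risperidone and 1 with clozapine. The labels name no batch shared by a number, and with only 2 pairs of arrays a group the numbers are not shown to pair the samples, although same-numbered arrays correlated in their deviations at 0.16 to 0.71 over the 6 pairs of groups.

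Between drugs, where all main values were within their error, signs turned as follows. Clozapine minus risperidone for miR-338-3p was 0.058 with the percentile over all probes, 0.081 with quantile normalization, 0.19 without scaling, 0.039 with loess, 0.030 with normexp, 0.075 with the deposited signal and 0.0033 with the brightest probe, the last 2 also under the block. Risperidone minus haloperidol for miR-338-3p was -0.034 with quantile normalization and -0.81 without scaling, and clozapine minus haloperidol -0.62 without scaling. Risperidone minus haloperidol for miR-338-5p was 0.072 with loess, 0.023 with the deposited signal and 0.053 with the brightest probe, both also under the block, and 0.053 with probes above background. For miR-219-5p it was 0.23 with the percentile over all probes. With normexp, risperidone minus haloperidol was 0.56 for miR-219-5p and 0.70 for miR-338-5p, clozapine minus haloperidol 0.83 and 1.28, and clozapine minus risperidone 0.27 and 0.58. Leaving out 1 array at a time, risperidone minus haloperidol ranged over -0.29 to 0.37 for miR-338-3p, -0.83 to 0.24 for miR-338-5p and -1.12 to 0.59 for miR-219-5p. Clozapine minus haloperidol ranged over -0.15 to 0.28 for miR-338-3p and -0.83 to 0.15 for miR-338-5p. Clozapine minus risperidone ranged over -0.34 to 0.36 for miR-338-3p, -0.62 to 0.47 for miR-338-5p and -1.35 to 0.40 for miR-219-5p. The causes were not tested.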
